A study of Homo sapiens with 6 samples.

Results

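The replication-dependent histone genes were taken as the protein-coding genes on chromosome 6 from 26 to 28.5 Mb and on chromosome 1 from 149.8 to 150 Mb (hg38, GENCODE release 44) whose symbols begin with H1-, H2AC, H2BC, H3C or H4C. This rule uses names and positions and no measured value. It gave 64 of the 19970 protein-coding genes of chromosomes 1 to 22 and X, namely 6 H1, 15 H2A, 16 H2B, 13 H3 and 14 H4 genes. H2BC18 entered because its 5′ end, at 149812373, lies inside the window. The other 36 protein-coding genes of the same windows served as neighbours.

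Accessible chromatin was mapped in 6 ATAC-seq libraries, for which the transposase Tn5 cuts and tags open DNA, from SK-N-AS, an established neuroblastoma cell line without MYCN amplification. All cells had been grown as xenografts in mice, dissociated and returned to culture as adherent cells. A tumor that had received vehicle gave the naïve cells. R1 and R2 came from indisulam-resistant tumors taken at the second relapse, during the third cycle of indisulam, a compound that recruits the splicing factor RBM39 to the DCAF15 ubiquitin ligase for degradation. The cultures themselves received no treatment. Each of the 3 cell types had 2 libraries, and the labels do not say whether these were separate cultures, so the spread between them may be technical. The comparison asks which promoters differ in accessibility between resistant and naïve cells.

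Each histone gene of this kind is a short intronless gene that is transcribed mainly in S phase, when newly made DNA has to be wrapped into nucleosomes. The core histones H2A, H2B, H3 and H4 form the nucleosome and H1 binds the linker DNA between nucleosomes. Many copies of each gene lie in clusters, where the coactivator NPAT gathers at the histone locus body. Their mRNAs end in a stem-loop in place of a poly(A) tail, and the stem-loop binding protein SLBP carries them through processing and translation. Genes for H2A and H2B often stand back to back and share a promoter.

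The deposited lists were of very unequal depth. The naïve lists held 154926 and 115694 peaks, the R1 lists 340558 and 292030, and the R2 lists 67558 and 73484. The background rate behind these lists, in tags, was 2.29 and 1.35 in naïve, 7.94 and 5.43 in R1, and 0.850 and 0.899 in R2. In tags, the first R1 list began at a pileup of 18 tags, or 2.27 times the background, and both R2 lists at 6 tags, or 7.06 and 6.68 times the background. A pileup of 6 tags has an exact 95% Poisson interval of 2.2 to 13.1 tags, which covers counting error only. Promoter peaks of 8 markers of mesenchymal neuroblastoma, to which SK-N-AS is usually assigned, were called for 5 to 8 markers per library, and those of 8 adrenergic markers for 5 to 8 as well. Of 5 fibroblast markers 2 to 3 had one, and of 4 blood cell markers 1 to 2, so promoter peaks alone did not separate these types.

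The stem-loop that marks these mRNAs was visible in the genome. The run of 16 bases most widely shared downstream of the 64 starts was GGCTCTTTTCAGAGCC, whose ends are inverted repeats of 6 bases around a loop. It was present exactly in 36 of the 64 genes, 431 to 777 bases after the start with a median of 481, and with at most 2 mismatches in 59. It lies in the 3′ end of the transcript and no accessibility was read from it.

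The 250 bases before the start of 4 genes, read 5′ to 3′ along the gene, are shown because these genes carry the results below. Among the 7 H2B genes with a peak in every library, H2BC21 had the highest mean rank and H2BC4 the lowest. H4C8 was the only H4 gene with a peak in every library, and H2BC11 had the largest difference between resistant and naïve cells. The sequences are from RefSeq (GRCh38.p14), all genes are on the minus strand, and the windows are chr1:149886683-149886932, chr6:26123927-26124176, chr6:26285535-26285784 and chr6:27132796-27133045. Capitals mark matches, on either strand, to the TATA box TATAAA, the CCAAT box CCAAT, the octamer ATTTGCAT bound by POU2F1, the H1 box AAACACA and the E2F core TTTCGCG.
H2BC21: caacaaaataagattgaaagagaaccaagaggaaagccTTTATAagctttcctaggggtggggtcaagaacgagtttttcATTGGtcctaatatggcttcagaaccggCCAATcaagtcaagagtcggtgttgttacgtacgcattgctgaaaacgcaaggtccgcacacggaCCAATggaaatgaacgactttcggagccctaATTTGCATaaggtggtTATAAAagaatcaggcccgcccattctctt
H2BC4: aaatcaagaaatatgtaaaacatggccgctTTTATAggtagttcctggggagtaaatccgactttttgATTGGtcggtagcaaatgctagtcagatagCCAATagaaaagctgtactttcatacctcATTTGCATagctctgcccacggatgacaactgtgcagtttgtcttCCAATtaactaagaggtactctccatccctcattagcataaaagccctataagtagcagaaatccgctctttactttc
H4C8: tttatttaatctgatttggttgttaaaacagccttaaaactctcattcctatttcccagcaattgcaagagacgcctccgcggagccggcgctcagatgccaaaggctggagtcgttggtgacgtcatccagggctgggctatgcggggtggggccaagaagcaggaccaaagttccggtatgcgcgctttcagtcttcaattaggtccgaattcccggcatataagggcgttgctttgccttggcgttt
H2BC11: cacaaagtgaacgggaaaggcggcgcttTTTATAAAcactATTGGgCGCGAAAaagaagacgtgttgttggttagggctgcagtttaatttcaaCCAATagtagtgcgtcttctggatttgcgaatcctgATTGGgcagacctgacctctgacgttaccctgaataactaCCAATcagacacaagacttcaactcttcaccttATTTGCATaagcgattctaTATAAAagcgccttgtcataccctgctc
The 3 H2B promoters each held CCAAT boxes and 1 octamer. Counting from the start base as 0, the octamer began at -46 and a TATA box at -30 in H2BC21, and at -47 and -28 in H2BC11. In H2BC4 the octamer stood farther away, at -123, and the letters TATAAA were found only on the opposite strand, at -220. None of the 5 letter strings was found in the H4C8 window, which precedes the canonical start and lies partly inside the longer gene record.

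Counted over all 64 genes, the share of histone promoters with a called peak was below that of all promoters in every library. A peak lay within 1000 bp of the start in all 6 libraries for 18 of the 64 histone genes (28.1%), beside 52.1% of all protein-coding genes and 10 of the 36 neighbours. A further 12 histone genes (18.8%) had no peak in any library, beside 16.2% of all genes, and 34 had a peak in 1 to 5 libraries. Per library, a peak was present at 41 and 37 of the 64 genes in naïve cells, at 50 and 49 in R1 and at 27 in each R2 library. These are 64.1%, 57.8%, 78.1%, 76.6%, 42.2% and 42.2% of the histone genes, against 68.7%, 65.2%, 82.8%, 80.9%, 58.5% and 59.4% of all genes. For the neighbours the shares were 58.3%, 55.6%, 83.3%, 77.8%, 36.1% and 38.9%. They lay below the histone share in both naïve and both R2 libraries and above it in R1, so low coverage was not particular to the histone genes. The gap to all genes was widest in the shallow R2 lists. The order of the histone share over libraries was that of the background rate apart from the 2 equal R2 lists. The 64 include 6 chromosome 1 genes, described below, around whose starts few or no reads can be placed uniquely. Of the 12 genes with no peak, 5 are among them. These 6 genes lower the histone share in every library, and the set of all genes was not filtered for such places. Leaving them out would put the histone share above that of all genes in the first naïve and both R1 libraries. The share with no peak in any library would then lie below that of all genes. In the second naïve and both R2 libraries the histone share would stay below.

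**Figure D1:**
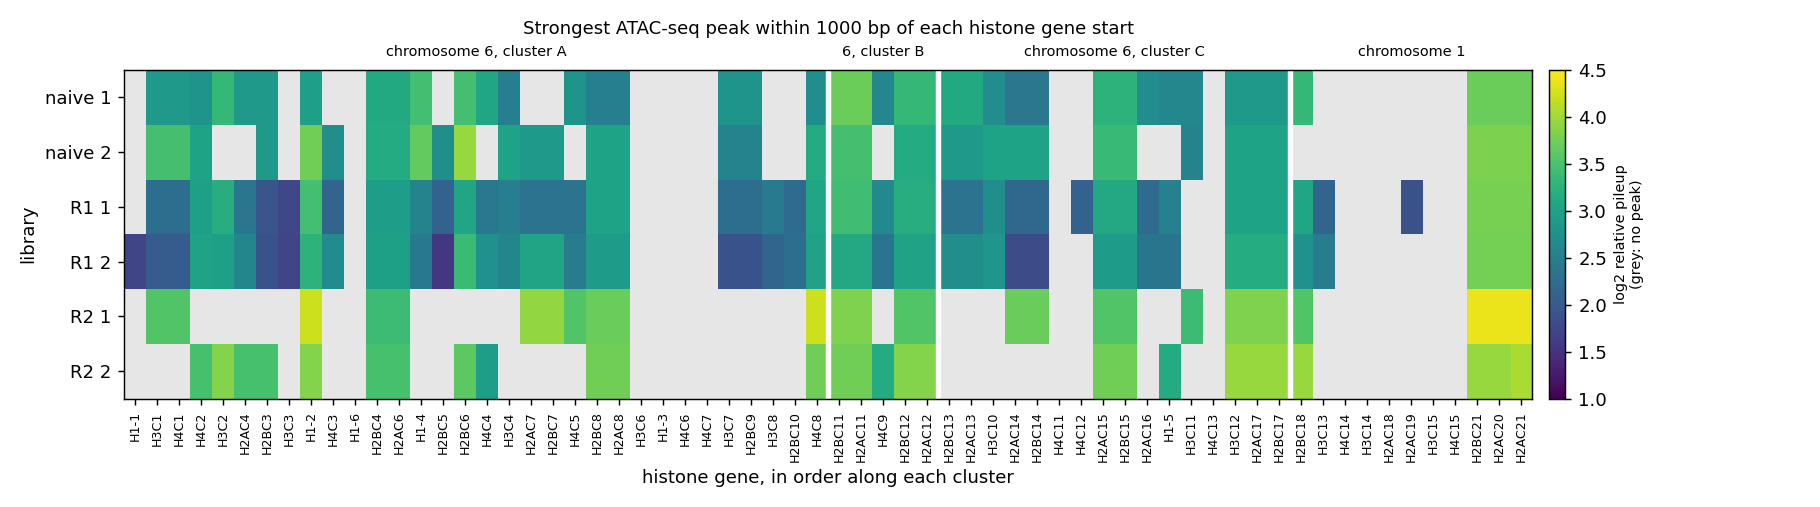
Relative pileup, the tags at a peak's summit divided by the library's background rate, on a log2 colour scale, for the strongest peak within 1000 bp of each of the 64 histone gene starts (columns, in order along each cluster) in each library (rows). Grey cells have no called peak. The R1 rows are filled at 50 and 49 genes and the R2 rows at 27 each, and the run from H3C6 to H4C7 and 5 of the 11 genes of chromosome 1 are grey throughout.

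Presence was unequal among classes and promoter arrangements. H2A and H2B genes, 8 of 15 and 7 of 16, made up most of the 18 genes with a peak in all libraries. H1, H3 and H4 gave 1 gene each, out of 6, 13 and 14. Of the 12 genes with no peak, 6 were H4 genes, 3 H3, 2 H1 and 1 H2A, and no H2B gene was among them. In the first R1 library all 16 H2B genes had a peak, against 8 of 14 H4 and 3 of 6 H1 genes.

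Coverage also went with promoter arrangement. There were 12 pairs of histone genes transcribed away from each other with starts under 1000 bp apart, among 23 genes, since H2BC17 stood in 2 of them. The 10 H2A/H2B pairs had 170 to 251 bp between their starts. A peak in all 6 libraries was found for 15 of the 23 paired genes and for 3 of the 41 others, and a peak in no library for 0 and 12. Of the 3, H2AC21 held the peak of the nearby pair H2BC21/H2AC20 in most libraries. Of the 12, 5 lie in the repeated stretch of chromosome 1 described below. Since 10 of the 12 pairs are H2A/H2B pairs, arrangement and class largely overlap, and they were not separated. In 8 pairs both genes were assigned the same peak in every library, so a pair gives 1 measurement and not 2. Presence by cluster was 6 of 32 genes in all libraries in the large cluster of chromosome 6, which spans 267.851 kb, 4 of 5 and 5 of 16 in its 2 smaller clusters, and 3 of 11 on chromosome 1.

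**Figure D2:**
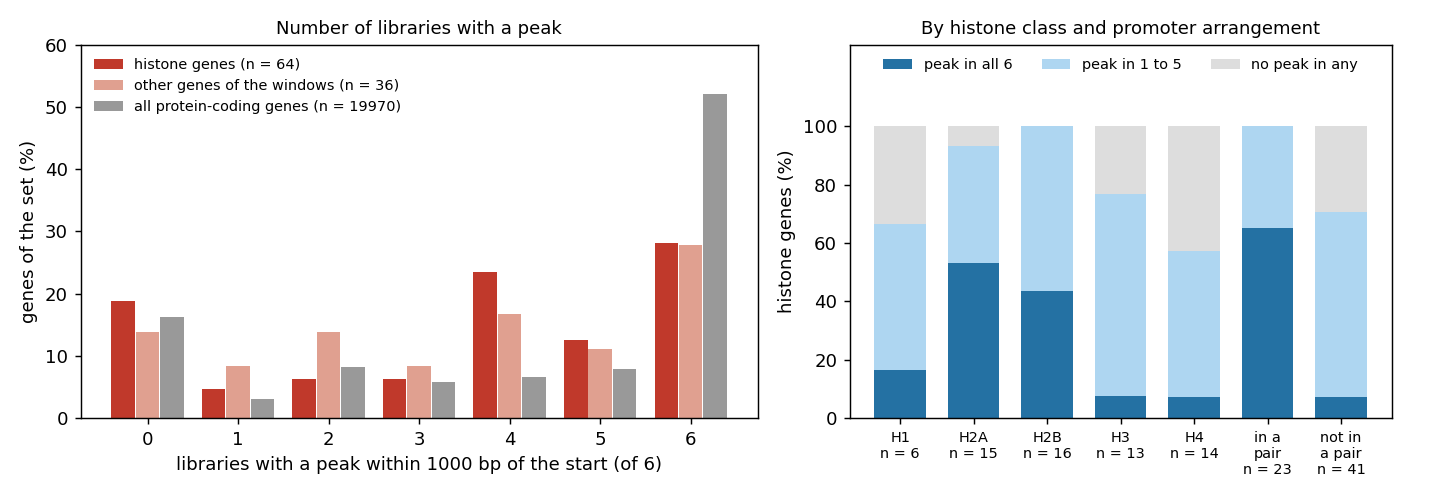
Left, the percentage of histone genes, of their 36 neighbours and of all 19970 protein-coding genes by the number of libraries with a peak within 1000 bp of the start. Right, the percentage of histone genes with a peak in all 6, in 1 to 5 or in no library, by class and by whether the gene stands in a back-to-back pair. All 6 libraries had a peak for 28.1% of histone genes and 52.1% of all genes, and for 15 of 23 paired genes.

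The 12 genes without a peak fell into 2 kinds. On chromosome 1, H4C14, H3C14, H2AC18, H3C15 and H4C15 lie in a repeated stretch in which no 50-base word within 500 bp of the start was unique in hg38, and the study's mapping filter removed reads that fit several places equally. H2AC19 in the same stretch had a peak in 1 library, 29 tags high and with its summit at -940 bp from the start, that is upstream. The absence of a peak there says nothing about accessibility. In all, 6 of the 11 genes on chromosome 1 had under 10% unique words, while on chromosome 6 the lowest share was 56.7% and the median 99.3%.

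The other 7 lie on chromosome 6. H1-6, H3C6, H1-3, H4C6, H4C7 and H4C13 had 93.2% to 100% unique words, and H4C11 had 56.7%. H1-6 encodes the linker histone of the testis. H1-3 is a somatic linker histone gene, and H3C6, H1-3, H4C6 and H4C7 follow each other in the large cluster. In these 4 neighbouring genes no library had a peak within 1000 bp, the 2 deep R1 lists included. A peak in the R1 libraries alone was found for 7 genes, among them H3C13, H3C3, H3C8 and H2BC10 in both R1 libraries, and 15 genes had a peak in 4 libraries and 8 in 5. Absence did not follow depth throughout. The pattern of the first naïve, both R1 and the second R2 library, without the second naïve library, was found for 5 genes.

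H3C11, chosen here after its values were seen, had a peak of 14 and 8 tags in the naïve libraries and of 9 tags in the first R2 library, and none in either R1 library, where lists are deepest. To set missing peaks beside depth, the pileups of the 48 genes with a peak in both R1 libraries were scaled by the ratio of background rates. The scaled pileup reached the lowest called pileup for 45 and 35 genes in the naïve libraries and for 22 and 23 in the R2 libraries. Of these, 39, 28, 19 and 22 had a peak, or 86.7%, 80%, 86.4% and 95.7%, beside 87.1%, 87.2%, 86.1% and 86.3% of all genes treated the same way. After scaling, the histone share lay within 1 percentage point of that of all genes in 2 libraries, below it in the second naïve and above it in the second R2 library.

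Where a histone promoter had a peak, it usually ranked below the peaks of other promoters. In the list of each library the peaks were ranked by their p-value, so that a list percentile of 100 is the strongest peak. The median list percentile of the histone genes with a peak was 67.3 and 41.1 in naïve, 80.7 and 82.9 in R1, and 60.1 and 69.1 in R2. For all genes with a peak it was 92.1, 90.7, 96.7, 96.2, 84.7 and 85.2, and for the neighbours 86.1, 80.7, 92.7, 91.1, 82.2 and 79.5. In all 6 libraries the histone median lay below both. At most 5 histone genes in a library passed the median of all genes, in the first naïve library, 3 did so in the first R2 library and 0 in the other 4.

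**Figure D3:**
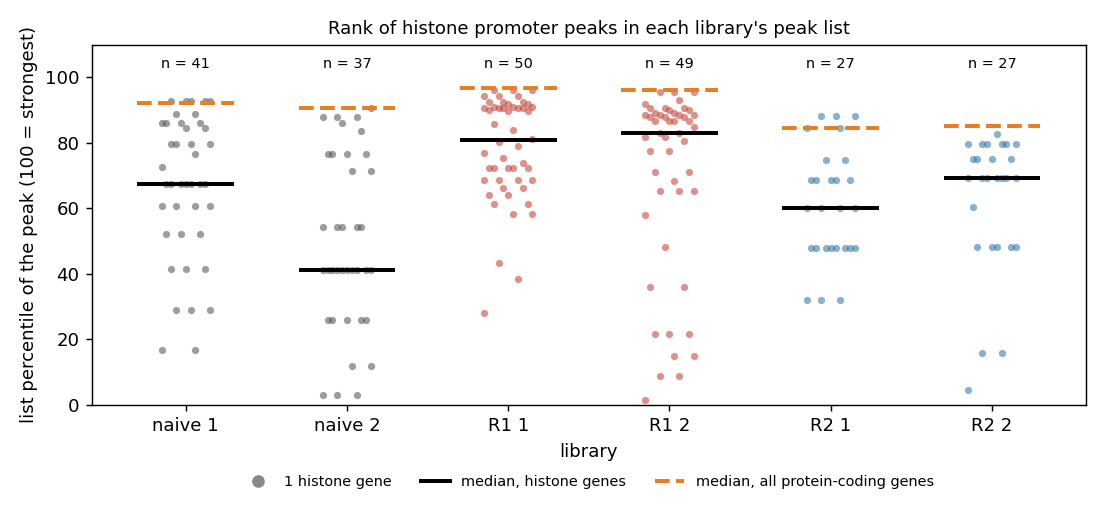
List percentile of the strongest peak within 1000 bp of the start, where 100 is the strongest peak of that library, for each histone gene with a peak (points, n above each column). Black lines are the medians of histone genes and dashed lines those of all protein-coding genes, which lie higher in every library, as 92.1 against 67.3 in the first naïve library.

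The peaks were also narrower than those of all genes, as were those of the neighbours. Median width was 329 and 299 bp in naïve, 630.5 and 549 bp in R1, and 391 and 326 bp in R2, against 679, 589, 1341, 1214, 462 and 475 bp for all genes. For the neighbours it was 321, 293.5, 470, 530.5, 320 and 393.5 bp, below the histone median in all but the second R2 library. The median summit offset from the histone start was -82 to -4 bp, where negative is upstream, and 68.3% to 85.2% of summits were within 250 bp of it, against 62.4% to 66.7% over all genes. Yet the peak covered the start less often than over all genes in 5 of the 6 libraries, as in 54.1% against 71.5% in the second naïve library, and more often in the second R2 library, in 77.8% against 69.7%. The median absolute distance of the summit was larger for histone genes in the second naïve library, 141 against 137 bp, and in the first R2 library, 168 against 129 bp, and smaller in the other 4. At H4C8 all 6 summits fell 62 to 222 bp inside the gene record, whose start is upstream of that of its canonical transcript.

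To compare cells, the peak of each gene was ranked among the same 10409 genes, those with a peak within 1000 bp in all 6 libraries, which gives the promoter percentile. The 18 histone genes among them hold 10 distinct sets of values, since paired genes share a peak. They had to be called in the shallow R2 lists, where their pileup was at least 9 tags, so they are the more open members and not the whole family. Their median promoter percentile was 13.7 and 5.6 in naïve, 2.76 and 2.88 in R1, and 21.2 and 22 in R2. Neighbours with a peak in all libraries, 10 genes, had 30.1, 26.4, 17.1, 21.8, 41.1 and 33.4. All 18 histone genes were under 50 in 5 libraries and 15 of 18 in the first R2 library.

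The strongest peak was chosen in each library separately and was not always the same one. For 10 of the 52 histone genes with a peak, the assigned peaks lay in 2 places that do not overlap, and 5 of these were among the 18, beside 2.01% of all genes tested. The 5 are H2BC21/H2AC20, H2AC21 and H2BC4/H2AC6, and the others are H3C1/H4C1, H3C7, H2BC9 and H3C8. Their values across libraries are those of different peaks, and the results below are therefore also given over the 13 others, a restriction chosen after the data were seen.

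The highest and lowest members were H2A and H2B genes. H2AC21 and the pair H2BC21/H2AC20 on chromosome 1 led, with pileups at H2BC21 of 30 and 19 tags in naïve, 109 and 74 in R1, and 18 and 14 in R2. Divided by the background rate these are 13.1, 14.1, 13.7, 13.6, 21.2 and 15.6. The value of the second naïve library is that of another peak, with its summit at -1330 bp, so the libraries do not compare like with like here. H2AC21 was assigned the peak of the pair in the first naïve, both R1 and the first R2 libraries. Its summit there was 934 to 1214 bp downstream of the H2AC21 start, so the rank of H2AC21 is largely that of the pair. The promoter percentile of H2BC21 was 38.3 and 32.6 in naïve, 17.4 and 19.7 in R1, and 53.0 and 30.5 in R2. Over all genes tested the median relative pileup was higher in R1, at 20.8 and 20.1 times the background, than in naïve, at 14.9 and 17.8, and was 19.99 and 20.03 in R2.

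The lowest mean rank was that of H2BC4 and H2AC6. Their pileup was 20 and 12 tags in naïve, 62 and 43 in R1, and 9 and 10 in R2, and their promoter percentile 11.4, 5.6, 1.4, 2.03, 5.12 and 8.51. In both naïve and the first R1 library the peak stood 808 to 894 bp downstream of the H2BC4 start, and in the second R1 and both R2 libraries another stood between the starts, so no order of the libraries is read from these values. H1-2, the one linker histone gene in the set, had 18 tags in each naïve library, 87 and 52 in R1, and 16 and 13 in R2. Its promoter percentile was 7.24 and 28.5 in naïve, 7.50 and 5.29 in R1, and 43.8 and 24.9 in R2. Naïve values overlapped both others, and the R1 and R2 values did not overlap.

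In resistant cells as a whole no histone promoter passed the test. limma with Benjamini-Hochberg adjustment over all 10409 genes called 0 of the 18 histone genes at an adjusted p under 0.05, beside 1.69% of all genes, and 0 of 18 had an unadjusted p under 0.05, beside 22.3%. The smallest adjusted p among them was 0.250. The difference, resistant minus naïve, was negative for 11 and positive for 7, with a median of -2.90 percentile points against -0.387 over all genes tested and -1.35 over the neighbours. That median was 0.289 without the second R2 library, -7.86 without the second naïve library and -1.35 without the first, so its sign was not stable. Over the 13 genes whose peaks lie in 1 place it was 2.51, with 6 negative and 7 positive.

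The members at the ends of this comparison were the following. H2BC11/H2AC11 had the most negative difference, -14.8 ± 7.0 (SE), with 27.5 ± 15.3 in naïve, 5.10 ± 2.44 in R1 and 20.2 ± 1.42 in R2 (mean ± SD, n = 2). H2AC15/H2BC15 followed at -5.94. H4C8 had the most positive, 12.8 ± 6.83 (SE), and H3C12, H2AC17 and H2BC17, which share 1 peak, had 10.1 ± 4.80 (SE). The intervals of all of these include 0. An exact permutation test cannot reach 0.05 here, since its smallest two-sided p is 0.133 for 2 against 4 libraries and 0.333 for 2 against 2.

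The median differences of R1 and of R2 from naïve cells had opposite signs. In R1 against naïve, 0 of 18 histone genes were called by limma, beside 5.68% of all genes. Unadjusted, 2 of 18 were under 0.05, the pair H2BC11/H2AC11 with a difference of -22.3 ± 8.09 (SE) and an adjusted p of 0.133, beside 25% of all genes in either direction and 12.8% lower. All 18 differences were negative, beside 5436 of 10409 genes tested and 8 of 10 neighbours. The median over the 18 was -9.21 against -0.675 over all genes tested, -7.68 over the neighbours and -2.31 over the 3187 genes whose mean percentile was no higher than that of the highest histone gene. This median was -4.23 without the first naïve library and -14.9 without the second, when 17 of 19 histone genes tested were lower. Over the 13 genes with peaks in 1 place all differences were negative, with the same median of -9.21.

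In R2 against naïve, 0 of 18 were called, beside 0.346% of all genes. Unadjusted, 6 of 18 were under 0.05, all higher in R2, beside 17.9% of all genes in either direction and 9.32% higher. They come from 3 peaks, those of H4C8 with a difference of 27.4 ± 7.89 (SE), of H3C12, H2AC17 and H2BC17 with 21.6 ± 5.54, and of H2BC8/H2AC8 with 15.4 ± 4.51. Their adjusted p-values from limma were 0.144, 0.116 and 0.145. The naïve pileups at these 3 peaks were 5.68 to 8.88 times the background, and the R2 lists begin at 7.06 and 6.68 times. A gene at that level is tested only where its R2 pileup reached the limit, which favours higher values in R2. The part of this in the count was not tested. Of the 18 differences 14 were positive and 4 negative, beside 5212 of 10409 genes tested and 7 of 10 neighbours positive. The median difference over the 18 genes was 6.35, against 0.0144 over all genes tested and 7.60 over the neighbours. It was 15.4 without the second R2 library, 10.4 without the first naïve library and 3.33 without the second. Over the 13 genes with peaks in 1 place it was 15.4, with 11 positive and 2 negative.

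In R1 against R2, 0 of 18 were called, beside 0.97% of all genes, and 10 of 18 had an unadjusted p under 0.05, all lower in R1, beside 18.7% in either direction and 9.95% lower. All 18, which hold 10 distinct sets of values, were lower in R1 than in R2, beside 5369 of 10409 genes tested and 8 of 10 neighbours. The median difference over the 18 was -15.6 against -0.497 over all genes tested and -2.53 over the equally low-ranked genes. The 10 neighbours had a larger median difference, -19.6. Leaving out any 1 library kept every difference negative, over the 18 to 22 histone genes then tested, with medians of -19.0 to -15.4. The 13 genes with peaks in 1 place were all lower too, with a median of -15.6. On the log2 relative pileup, centred on the median of each library, limma called 6 of the 18 lower in R1, beside 2.51% of all genes, namely H4C8 with a difference of -0.98 and an adjusted p of 0.0237, H3C12, H2AC17 and H2BC17 with -0.82 and 0.0369, and H2BC8/H2AC8 with -0.77 and 0.0372. The call on these 3 peaks thus depended on the scale. The R2 lists call a peak only from 7.06 and 6.68 times the background and the R1 lists from 2.27 and 2.58 times, so a promoter near the R2 limit is tested only where its R2 pileup reached it. The part of this in the R1 and R2 differences was not tested.

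**Figure D4:**
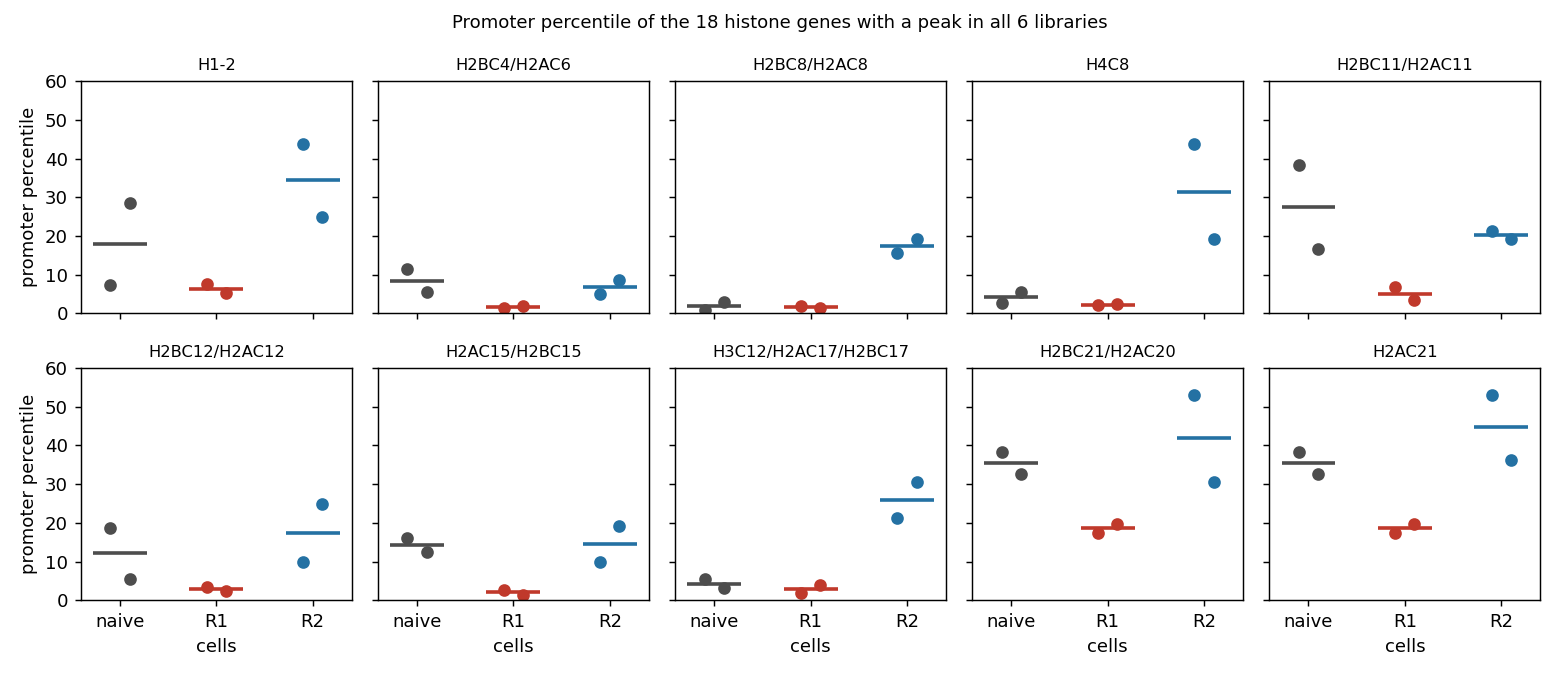
Promoter percentile, the rank of a gene's strongest peak among 10409 genes with a peak in all 6 libraries (100 is the strongest), for the 10 sets of values that the 18 histone genes hold. Points are libraries and lines the means of 2 libraries. The R1 points lie under 20 in every panel, and those of H4C8 are 2.18 and 2.38 against 43.8 and 19.2 in R2. For H2BC21/H2AC20, H2AC21 and H2BC4/H2AC6 the libraries hold peaks in different places.

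H4C8, an H4 gene at chr6:26277609-26285638 on the minus strand, had the largest gap between the resistant cells. Its pileup was 15 and 12 tags in naïve, 66 and 44 in R1, and 16 and 12 in R2. Its relative pileup was 6.56 and 8.88, 8.31 and 8.10, and 18.8 and 13.4, so both R2 libraries lay above the others. The 16 tags of the first R2 library have a 95% Poisson interval of 9.15 to 26 tags. The promoter percentile was 2.64 and 5.6 in naïve, 2.18 and 2.38 in R1, and 43.8 and 19.2 in R2, and the R1 minus R2 difference of -29.2 ± 7.89 (SE) had an adjusted p of 0.108 in limma.

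The naïve and R1 libraries, which are the deeper ones, could be compared without the R2 lists. This comparison was chosen after the data were seen. A peak in both naïve and both R1 libraries was found for 32 histone genes, which hold 19 distinct sets of values, and for 12499 genes in all. In 17 of the 32 (53.1%) the relative pileup of both R1 libraries was below that of both naïve libraries, and in 3 it was above both. Over all genes these shares were 12.5% and 50.6%, and over the 5580 genes with a naïve mean no higher than that of the highest histone gene they were 12.5% and 52.5%. Of the neighbours 2 of 17 were lower and 5 higher. The 17 genes hold 10 distinct sets of values, and 16 further histone genes with a peak in both R1 libraries were left out because a naïve library had none. The naïve lists began at 3.93 and 5.18 times the background, so a gene with lower R1 pileups entered only where naïve was higher. At H2BC3, H3C1/H4C1, H2AC14/H2BC14, H3C7 and H2BC9 both R1 values lay under 5.18. The filter thus keeps genes with a high naïve pileup, and its part in the count was not tested. Over the 23 histone genes whose 4 peaks lie in 1 place, 11 were lower (47.8%) and 3 higher, beside 11.7% and 51.4% of the 12078 such genes in all, and the 11 hold 7 of 15 distinct sets of values.

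The ends of this order were named after their values were seen. H2BC3, whose peaks lie in 1 place, had 7.43 and 7.40 in naïve and 3.78 and 3.68 in R1. The ratio of the R1 to the naïve mean was 0.503. Both R1 values lay below the lowest pileups of the naïve lists, 3.93 and 5.18, so any naïve peak there had to be higher. For H3C1/H4C1 the ratio of 0.477 sets different peaks side by side, since the first library of each group had its peak at H3C1 and the second at H4C1. At the other end H2BC8/H2AC8 had a ratio of 1.14, and H3C12, H2AC17 and H2BC17 one of 1.10. Over the 32 genes the median ratio was 0.870, against 1.18 over all genes.

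H1-4, a linker histone gene at chr6:26156329-26157115 on the plus strand, had its peak in naïve and R1 cells only. It was chosen here after its values were seen. The pileup was 25 and 17 tags in naïve and 47 and 29 in R1, or 10.9, 12.6, 5.92 and 5.34 times the background. At the naïve level about 10.0 and 10.6 tags would have been found in the R2 libraries, above the lowest called pileup of 6, and no peak was called there. At the R1 level 4.78 and 5.06 tags would have been found, below it. It did not enter the main test, since R2 has no value. With genes without a peak ranked lowest it was called, but its R2 ranks are then imputed.

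**Figure D5:**
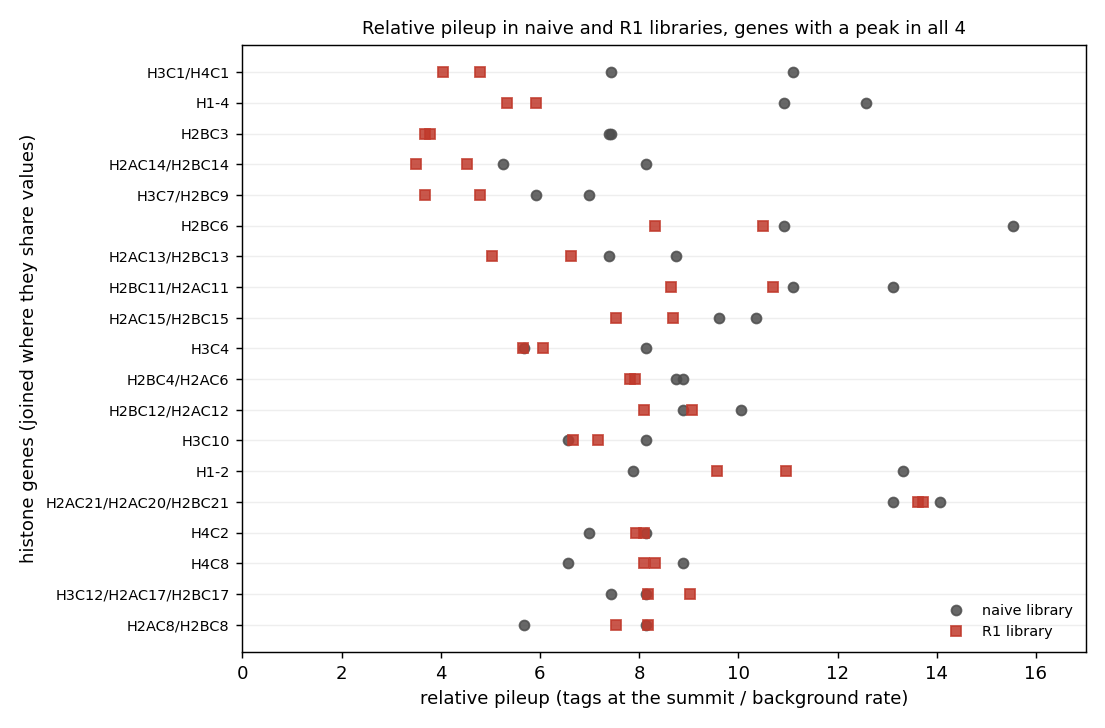
Relative pileup (tags at the summit over the background rate) of the 32 histone genes with a peak in both naïve and both R1 libraries, joined where genes share values and ordered by the ratio of the R1 to the naïve mean. Circles are naïve and squares R1 libraries. In 10 of the 19 sets both squares lie left of both circles, as at H1-4 with 5.34 and 5.92 against 10.9 and 12.6. By gene these are 17 of 32, beside 12.5% of the 12499 genes in all. The naïve lists begin at 3.93 and 5.18, so a gene with R1 values under these entered only where naïve was higher. The sets of H2BC21/H2AC20, H2AC21, H2BC4/H2AC6, H3C1/H4C1, H3C7 and H2BC9 join peaks in different places.

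The genes that transcribe, process and chaperone histones stood higher than the histone genes themselves. Of 32 such genes 28 had a peak in all 6 libraries and none lacked one throughout. Their median promoter percentile was 65.8 and 69.0 in naïve, 56.7 and 56.5 in R1, and 57.6 and 60.0 in R2. NPAT, the coactivator of histone transcription, had 33 and 24 tags in naïve, 174 and 86 in R1, and 20 and 18 in R2, and differed by 0.549 ± 11.1 (SE) percentile points between resistant and naïve cells. SLBP differed by 5.34 ± 5.5, and HINFP, which activates H4 genes, by 3.46 ± 11.8. CASP8AP2, a component of the histone locus body, differed by 31.0 ± 13.3 with an adjusted p of 0.211 in limma, and its naïve values of 58.7 and 12.5 were far apart.

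Of the 28 genes 2 passed the test, both in R1 against naïve, where 5.68% of all genes were called, so the count is near the background. ASF1B, a chaperone of H3 and H4, was lower, at 97.7 and 97.9 in naïve and 71.7 and 79.2 in R1, a difference of -22.4 ± 3.85 (SE) with an adjusted p of 0.0217 in limma. E2F1, a transcription factor of the entry into S phase, was higher, at 77.9 and 85.8 in naïve and 95.7 and 97.4 in R1, a difference of 14.7 ± 3.34 with an adjusted p of 0.0409. For both genes the R2 values, 90.5 and 87.0 for ASF1B and 92.8 and 94.8 for E2F1, lay on the same side of naïve as R1. In resistant cells as a whole they missed the threshold, with adjusted p-values of 0.0529 and 0.0533, and limma called none of the 28 in the other 3 contrasts.

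The replication-independent variants, which are also made outside S phase and mostly carry poly(A) tails, stood higher than the clustered genes. Of 12 such genes 7 had a peak in all 6 libraries, and their median promoter percentile was 71.8, 55.4, 80.6, 80.4, 75.3 and 85.3. H3-3A had 84.8 and 90.5 in naïve, 80.6 and 80.4 in R1, and 84.3 and 96.0 in R2, and H3-3B 86.5, 95.8, 87.2, 87.6, 97.7 and 93.2. Both encode the same H3.3 protein, and neither overlapped the values of any clustered histone gene. H2AZ1 had 71.8, 40.4, 92.2, 83.9, 75.3 and 85.3, a resistant minus naïve difference of 28.1 ± 8.86 (SE) with an adjusted p of 0.114. H2AX, whose transcripts can end in a stem-loop or in poly(A), had 18.6, 5.6, 7.13, 11.9, 9.91 and 51.2. It lay within the range of the 18 clustered genes in 5 libraries and above their highest value, 36.2, in the second R2 library. None of the 7 was called in any contrast.

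The promoters of the family share sequence that the choice of members did not use. RefSeq promoters of 300 bases, 250 before and 50 after the start, were matched for 59 of the 64 genes and had the same letters as hg38. A TATA box was found in 39 of 59 (66.1%), against 9.43% of 15315 promoters, and a CCAAT box in 50 (84.7%), against 36.6%. By class, every H1, H2A, H2B and H3 promoter held a CCAAT box, and 3 of 12 H4 promoters did. The octamer was found in 23 (39.0%), against 1.70%, in 10 of 14 H2A and 13 of 16 H2B promoters and in no H1, H3 or H4 promoter. The H1 box was found in 6 of 6 H1 promoters and 9 of 59 in all (15.3% against 3.99%), and the E2F core in 13 (22% against 1.92%). Windows of back-to-back genes overlap, so their matches are partly the same bases.

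Within the family, the octamer stood in 12 of the 16 promoters of genes with a peak in all libraries and in 11 of the other 43. The genes with a peak in all libraries were mostly H2A and H2B genes, the classes that hold the octamer. A TATA box was found in 12 of 16 and 27 of 43, a CCAAT box in 15 of 16 and 35 of 43, and the E2F core in 5 of 16 and 8 of 43. A match is a description of letters, and binding was not measured.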

How the data were processed

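ATAC-seq peak lists of 6 libraries (naïve, R1 and R2, 2 each) were used. Per the submitters' processing notes and the methods, the authors mapped reads with BWA 0.7.12-r1039, removed duplicates, reads of zero mapping quality and mitochondrial reads (Picard 1.65, SAMtools 1.3.1), corrected for the Tn5 offset and called peaks in each library with MACS2 2.2.7.1 without pooling, and bedtools 2.25.0 is also named. Both hg19 and hg38 are named, and the peak coordinates lie within the hg38 lengths on 24 of 24 chromosomes. The deposited files give a score, a fold enrichment (ratio) over background, and p-values and q-values as −log10.

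The summit pileup in tags and the background rate were recovered from the common step of the fold values. The tags came out whole within 0.001 for 100.0% of peaks. Gene starts are the 5′ ends of GENCODE release 44 gene records. The strongest peak within 1000 bp was taken per gene and library. limma 3.58.1 (R 4.3.3), with a mean trend, compared promoter percentiles in 4 contrasts, and calls needed an adjusted p under 0.05. The contrasts share libraries, so they are not independent. The fit was tested on simulated data. Python 3.11.15, NumPy 2.4.6, pandas 2.3.3, SciPy 1.17.1 and matplotlib 3.10.9 did the rest. The precision is limited by the few tags per peak in R2 and by 2 libraries per group.

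The members, gene lists and tests were chosen with earlier results of these data known. Genes were named by rank of mean promoter percentile in each class, by the largest differences between resistant and naïve cells, by being called and by lacking a peak. Alternatives were other distances, a stricter q-value, other scales, other starts, leaving out each library and a replicate block. Gene expression was not used here.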

Additional observations from a re-analysis of the deposited data

Results flagged for a closer look

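H4C8 stood out because its promoter percentile lay below both naïve libraries, 2.64 and 5.6, in both R1 libraries, 2.18 and 2.38, and above them in both R2 libraries, 43.8 and 19.2. The R1 minus naïve difference was only -1.84 ± 7.89 (SE), and the relative pileups of R1, 8.31 and 8.10, lay inside the naïve range of 6.56 to 8.88, so a move of R1 was not shown. The R1 minus R2 difference was -29.2 percentile points, with an adjusted p of 0.108 in limma. On the log2 relative pileup the same difference was -0.98 with an adjusted p of 0.0237.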

How the results depend on the processing

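With genes without a peak ranked lowest, so that all 64 histone genes enter, limma called 3 (H1-4, H3C7 and H2BC9) in resistant against naïve cells, 19 in R1 against naïve, 19 in R2 against naïve and 12 in R1 against R2, with 1003, 6061, 4674 and 4878 of all 19970 genes. Of these, 12 in each of the last 3 contrasts are the genes with no peak anywhere, whose tied rank follows from how many genes lack a peak in a library. The others were 4 lower and 3 higher in R1 than in naïve, and 7 lower in R2. The 7 have no peak in R2, the 3 have none in naïve, and H3C11, among the 4, has none in R1. Their ranks there are imputed, so these calls are no evidence of a difference. H1-4, H3C7 and H2BC9, the rest of the 4, have peaks in both groups, but their spread includes imputed R2 ranks. R1 against R2 gave 1 call at 2000 bp, H3C10, and 6 on the log2 relative pileup. H1-4, H3C7 and H2BC9 have no peak in R2, so their ranks there are imputed. Their 3 calls in resistant against naïve cells are thus no evidence of a difference. No other alternative called a histone gene.

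The median difference over histone genes on the log2 relative pileup was -0.10 for resistant against naïve, -0.32 for R1 and 0.16 for R2, in log2 units and not percentile points. Over the 13 genes whose peaks lie in 1 place, chosen after seeing the data, it was 2.51, -9.21 and 15.4 percentile points, with the sign turned in the first. Leaving out 1 library gave -7.86 to 0.289 for resistant against naïve, with the sign turned without the second R2 library, -14.9 to -4.23 for R1 against naïve and 3.33 to 15.4 for R2 against naïve. Those left-out fits with 1 library in a group assume that it varies like the others. The number of histone genes with a peak in all libraries was 16 to 19 under 6 alternatives. Ranking peaks by fold, which is among these, could not change it, since presence does not depend on the ranking.

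Over all genes, the 176, 591, 36 and 101 calls of the 4 contrasts became 716, 976, 207 and 378 on the log2 relative pileup, 677, 961, 196 and 293 on normal scores, and 294, 659, 17 and 77 at 2000 bp. At 500 bp R2 against naïve had 66 and with canonical starts, chosen after seeing the data, resistant against naïve had 264 and R2 against naïve 64. Leaving out 1 library gave 0 to 167, 0 to 904, 0 to 57 and 0 to 19. With the replicate block there were 84, 451, 0 and 0 calls and 0 histone genes in each contrast. The libraries share only a number, with correlations of same-numbered deviations of 0.0556, -0.0136 and 0.00944, so this is not a paired design. The cause of these shifts was not tested. Depth limits R2 most, where 6 tags were the least that was called.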

Other observations

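At H3C10, chosen after its values were seen, the R2 libraries had no peak within 1000 bp of the start, while the naïve libraries had peaks of 15 and 11 tags and the R1 libraries of 53 and 39 tags there. Both R2 libraries instead had a peak of 200 bp at chr6:27811859-27812058 (hg38), 1808 bp from the start at its near edge, with 21 and 42 tags and list percentiles of 92.0 and 99.1. At a distance of 2000 bp this peak was assigned to H3C10, and the R1 minus R2 difference was then -80.8 percentile points with an adjusted p of 0.0345 in limma. In the other 4 libraries the strongest peak within 2000 bp was the one at the start or, in the first naïve library, one of 20 tags over the starts of H2BC13 and H2AC13.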
